A study of Mus musculus with 6 samples.

Results

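The 10 genes for regulators of chromatin and general coregulators of transcription described here are Chd7, Epc1, Ing3, Phf14, Wac, Zfp462, Nrf1, Casp8ap2, Anp32b and Sub1. They were chosen by name for these roles, with earlier results of these data known, from a table of 53647 Ensembl gene identifiers. Each of the 10 had a row. The cells were D2.OR, mouse mammary carcinoma cells that serve in studies of tumour dormancy. Both groups were transduced with a lentiviral short hairpin RNA, selected with puromycin and grown for 7 days in 3D on Cultrex (basement membrane extract) with serum. The control group (Scram, n = 3) carried a scrambled, non-targeting hairpin. The other group (shSLX4IP, n = 3) carried a hairpin against Slx4ip, whose product binds the nuclease scaffold SLX4 and acts at telomeres. The labels name 1 hairpin per group, give no clone and call the samples biological replicates without saying that they came from separate cultures, so the p-values measure the spread between these samples.

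Chromatin regulators change how tightly DNA is packed on histones. Remodellers such as CHD7 spend ATP to move nucleosomes, readers such as ING3 and PHF14 dock on histone tails through PHD fingers, and EPC1 and ING3 are subunits of the NuA4 (TIP60) acetyltransferase complex, which acetylates histones at genes and at sites of DNA damage. Coregulators such as WAC and SUB1 work at transcribed genes without a sequence-specific DNA-binding domain of their own, whereas NRF1 binds its own GC-rich site in the promoters of respiratory and housekeeping genes.

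Values are the deposited normalised read counts, and the values of a group are always listed in the order of its libraries A, B, C. Each library's values are whole multiples of 1 step, and dividing by it gave 5433573 to 6693111 reads per library. Symbols are used only for genes in 4 stretches, near the starts of chromosomes 4, 6, 15 and 18, in which genes with high values lie side by side. Elsewhere the identifiers of Actb and Eef1a1, which every cell uses, are at 0 in each of the 6 libraries, as is that of Slx4ip, so the knockdown could not be checked. The 10 genes lie inside these stretches, which hold 431 tested genes. Of 7 carcinoma epithelium markers only Grhl2 and Esrp1 lie there, and their summed value was 26.2 to 82.0 in Scram and 2.93 to 22.6 in shSLX4IP, so the labelled cell type could not be checked. Of 5 fibroblast markers Col1a2 lies there, at 20226 to 25022 in Scram and 239 to 302 in shSLX4IP. Of 4 basal markers Cav1 lies there, at 20895 to 21283 and 13418 to 14103. None of 3 immune and 3 endothelial markers does. The part of these differences in the results for the 10 genes was not tested. Among the controls, Scram A stood apart: its values summed to 8.95e+06, against 5.28e+06 to 5.97e+06 in the other libraries. Its 6110599 reads lay within the range of the other libraries, but 8464 features were above 0, against 10548 to 11611 in the others. The fold change of each of the 10 genes is given with and without Scram A.

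The 10 genes passed the filter on low values, a mean of at least 10 over the 6 libraries. Between 103 reads (Zfp462 in Scram A, exact 95% Poisson interval 84.1 to 125) and 38695 reads (Anp32b in Scram A) lay behind each value. The interval covers counting error only. With limma on log2(value + 1), and p-values adjusted by Benjamini-Hochberg over all 8127 features tested, 1 of the 10 was higher in shSLX4IP (Zfp462) and 1 was lower (Sub1). Over all features 11.7% were called higher and 11.3% lower, 23% together, and in the 4 stretches 41.1% were called. The groups did not overlap in 8 of the 10, in 4 upward and in 4 downward, against 53.5% of all features tested and 67.5% of the tested genes of the stretches. By direction, 30.2% of all features were without overlap upward and 23.4% downward, and in the stretches 29.5% and 38.1%. There 18.3% were called higher and 22.7% lower. No count of the 10 is read as a result about the set. The median log2 fold change was -0.08 over the 10 genes, 0.25 over all features and -0.15 over the tested genes of the stretches. Values in shSLX4IP were close together, with a coefficient of variation of 2.40% (Anp32b) to 7.56% (Sub1). In Scram it ran from 8.54% (Ing3) to 61.4% (Sub1).

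**Figure D1:**
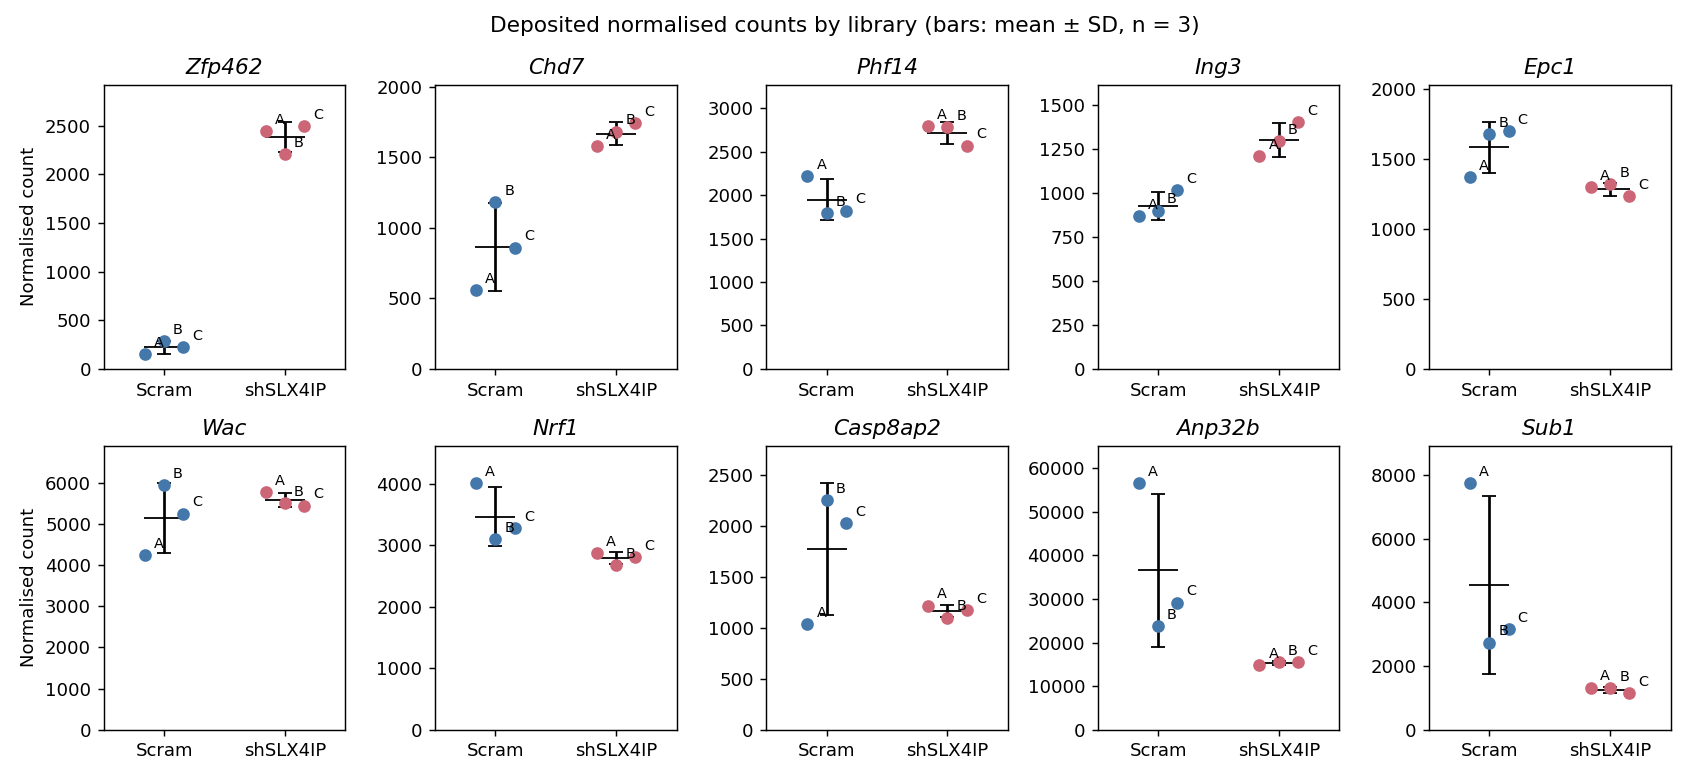
Deposited normalised count of each of the 10 genes (y axis, linear from 0) in the 3 Scram (blue) and 3 shSLX4IP (red) libraries, lettered A to C, with bars for mean ± SD (n = 3). Zfp462 lay between 2210 and 2497 in shSLX4IP and at 288 or below in Scram, and Scram A was the highest control for Anp32b, Sub1, Nrf1 and Phf14 and the lowest for the other 6 genes.

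Zfp462, a protein with many zinc fingers that takes part in forming heterochromatin, had the highest log2 fold change of the 10 genes. It rose 10.8-fold, from a mean of 221 ± 68.5 in Scram to 2385 ± 153 in shSLX4IP (SD, n = 3 each). The gene (ENSMUSG00000060206.12, chromosome 4, 54945048 to 55083563, plus strand) was at 151, 288 and 224 in Scram and at 2448, 2210 and 2497 in shSLX4IP. The lowest shSLX4IP library was far above the highest Scram library. Its log2 fold change was 3.47 (SE 0.27, 95% interval 2.81 to 4.13, limma adjusted p = 0.000914), and 24 of the 431 tested genes of the stretches had a higher one. Without Scram A, the lowest library, it was 3.22 (limma adjusted p = 0.000286). The call was kept in each of 18 other settings, with log2 fold changes of 3.12 to 3.69.

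Chd7, the remodeller whose human counterpart is mutated in CHARGE syndrome, had higher values in each shSLX4IP library without passing the test. The gene also lies on chromosome 4 (ENSMUSG00000041235.13, 8690406 to 8867659, plus strand). Its values were 558, 1181 and 860 in Scram against 1578, 1682 and 1743 in shSLX4IP. No shSLX4IP value fell within the Scram range, which was itself wide. The log2 fold change was 1.01 (SE 0.29, 95% interval 0.29 to 1.73, limma adjusted p = 0.0578). Without Scram A it was 0.72 and passed (limma adjusted p = 0.0184), and without Scram B it was 1.26 and passed (0.0259). Without Scram C or any 1 shSLX4IP library it did not pass (limma adjusted p = 0.128 to 0.175).

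Phf14 and Ing3, genes for PHD finger proteins on chromosome 6, had like log2 fold changes, at different levels. PHF14 is a reader of histone tails, and Phf14 (ENSMUSG00000029629.18, 11907809 to 12081205, plus strand) was at 2221, 1795 and 1823 in Scram and at 2795, 2781 and 2569 in shSLX4IP. All 3 shSLX4IP libraries were above all 3 Scram libraries, of which Scram A was the highest. Its log2 fold change was 0.49 (SE 0.14, 95% interval 0.13 to 0.84, limma adjusted p = 0.0611), and without Scram A it was 0.58 (limma adjusted p = 0.00287). Once a trend with exonic length had been taken out of each library (the length trend), Phf14 was at 0.06 (SE 0.30, limma adjusted p = 0.870). This removal also takes out any difference between the groups that follows length, and Phf14 is the longest member, so it cannot tell the 2 apart. Ing3 (ENSMUSG00000029670.13, 21949571 to 21976038, plus strand), which ties the NuA4 complex to methylated histone tails, was at 868, 901 and 1019 in Scram. In shSLX4IP it was at 1212, 1298 and 1405, again without overlap. Its log2 fold change was 0.49 (SE 0.15, 95% interval 0.13 to 0.86, limma adjusted p = 0.0650), and it passed without Scram A at 0.44 (limma adjusted p = 0.0236).

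Epc1, whose product is the scaffold on which the catalytic module of NuA4 is built, had slightly lower values in shSLX4IP. The gene (ENSMUSG00000024240.14, chromosome 18, 6435951 to 6516108, minus strand) was at 1372, 1678 and 1696 in Scram and at 1296, 1320 and 1233 in shSLX4IP. The highest shSLX4IP library lay just under Scram A, the lowest control. Its log2 fold change was -0.30 (SE 0.15, 95% interval -0.66 to 0.07, limma adjusted p = 0.196), and without Scram A it was -0.40 and passed (limma adjusted p = 0.00850). Quantile normalization shifted the median over all features from 0.25 to -0.0028 and that over the stretches from -0.15 to 0.10, and put Epc1 at 0.01. Of the 17 genes listed for NuA4, Epc1 and Ing3 are the 2 that lie in the stretches, and the others are not analysed here.

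Wac, an adaptor that brings the RNF20/RNF40 ubiquitin ligase to RNA polymerase at transcribed genes, showed no difference larger than its spread. It lies near Epc1 on chromosome 18 (ENSMUSG00000024283.16, 7868832 to 7929028, plus strand) and was at 4242, 5947 and 5254 in Scram and at 5772, 5509 and 5449 in shSLX4IP. The shSLX4IP values lay inside the Scram range. Its log2 fold change was 0.13 (SE 0.16, 95% interval -0.26 to 0.52, limma adjusted p = 0.553), and it did not pass in any of 18 other settings. Without Scram A it was -0.0037, and with the length trend removed -0.06. Rnf20, a gene for 1 subunit of the ligase on chromosome 4, did not pass either, at 3269 ± 564 in Scram and 2529 ± 138 in shSLX4IP (log2 fold change -0.36, limma adjusted p = 0.182), and it passed without Scram A (-0.51, limma adjusted p = 0.00604).

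Nrf1, which encodes nuclear respiratory factor 1, was lower in each shSLX4IP library without passing the test. The gene (ENSMUSG00000058440.15, chromosome 6, 30047988 to 30153458, plus strand) was at 4014, 3098 and 3278 in Scram and at 2871, 2679 and 2800 in shSLX4IP. Each shSLX4IP value was under each Scram value, by a small margin against Scram B. Its log2 fold change was -0.31 (SE 0.15, 95% interval -0.67 to 0.05, limma adjusted p = 0.178). It was -0.20 without Scram A and 0.16 after quantile normalization, and it did not pass in any of 18 other settings. Of 6 genes in the stretches listed as targets of NRF1, 3 were lower, none was higher and 3 did not pass. Of all features 11.3% were lower, and of the tested genes of the stretches 22.7%. NRF1 binding at these 6 genes was not measured, and a link to Nrf1 was not tested. The 6 genes had log2 fold changes of -6.94 to 0.39 and a median of -1.51. The lower ones, named after their values were seen, were Cox6c, a cytochrome oxidase subunit gene (limma adjusted p = 0.000506), Ccne2, the cyclin E2 gene (0.00329), and Ndufaf4, a complex I assembly factor gene (0.00491). Exons of Cox6c and of Ccne2 overlap those of a neighbour on the other strand, and the strand setting of the counting is not given in the sources used here. Scram A was at 81.2% (Ccne2) to 307% (Ndufa4) of the mean of Scram B and C in these 6 genes. Without Scram A, 5 of the 6 were lower and 1 was higher, and so were 35.3% and 30.9% of the tested genes of the stretches (19.4% and 23.3% of all features).

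The NRF1 site was looked for in promoters because NRF1 is among the 10 genes. RefSeq promoters (GRCm38.p6, 250 bases before to 50 after a start site) matched Anp32b, Casp8ap2, Ing3, Nrf1, Phf14 and Sub1, which have 9 promoter windows between them. The core of the site (GCGCANGCGC, either strand) occurred in 1 of the 9 windows and in 4.60% of all 32851 promoters in the table. That window belongs to a second start site of Phf14. The palindrome TGCGCA, part of the full site, occurred in none of the 9 and in 7.76% of all. These shares are not matched: 1 Nrf1 window held 2 CG pairs (C followed by G) and the others 17 to 43. The median over all promoters was 7, and the windows of Ing3 overlap each other. The bases upstream of that Phf14 start site (chr6:11925631-11925880, plus strand) are shown because they hold this match, with the core and 1 GC box in capitals.
Phf14: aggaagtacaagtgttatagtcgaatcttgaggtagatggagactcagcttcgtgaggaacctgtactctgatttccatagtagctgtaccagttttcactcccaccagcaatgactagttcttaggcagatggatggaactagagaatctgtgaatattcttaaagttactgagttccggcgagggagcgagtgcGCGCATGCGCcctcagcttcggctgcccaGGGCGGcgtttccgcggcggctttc
A match is a run of letters and not a measured site, and the counts per gene do not tell the start sites of Phf14 apart.

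Casp8ap2, whose product FLASH is needed for making histone messenger RNA in S phase, was lower in shSLX4IP than in Scram B and C, but not than in Scram A. The gene (ENSMUSG00000028282.13, chromosome 4, 32615451 to 32653265, plus strand) was at 1031, 2253 and 2027 in Scram and at 1217, 1098 and 1170 in shSLX4IP. Scram A lay under all 3 shSLX4IP libraries. Its log2 fold change was -0.53 (SE 0.32, 95% interval -1.32 to 0.26, limma adjusted p = 0.263). Without Scram A it was -0.88 (limma adjusted p = 0.00177), and with the length trend removed -0.76 (0.0179).

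Sub1, which encodes the coactivator PC4, a small protein that binds single-stranded DNA and RNA polymerase II promoters, was the 1 gene of the 10 called lower. It fell 3.63-fold, from 4547 ± 2790 in Scram to 1253 ± 94.7 in shSLX4IP (SD, n = 3 each). The gene (ENSMUSG00000022205.16, chromosome 15, 11981339 to 11996983, minus strand) was at 7760, 2732 and 3149 in Scram and at 1321, 1294 and 1145 in shSLX4IP. All 3 shSLX4IP libraries were below the lowest control, and Scram A was at 264% of the mean of Scram B and C. Its log2 fold change was -1.70 (SE 0.41, 95% interval -2.72 to -0.68, limma adjusted p = 0.0359). Without Scram A it was -1.23, with a smaller adjusted p (limma, 0.00132). The call was lost without Scram C (limma adjusted p = 0.0704) and without any 1 shSLX4IP library (0.115, 0.121 and 0.131 without A, B and C).

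Anp32b, a gene for an acidic histone chaperone and nuclear phosphoprotein, had the highest values of the 10. It (ENSMUSG00000028333.11, chromosome 4, 46450902 to 46472657, plus strand) was at 56663, 23848 and 29153 in Scram and at 14869, 15452 and 15546 in shSLX4IP. The groups did not overlap, and as for Sub1 the highest library was Scram A. Its log2 fold change was -1.15 (SE 0.33, 95% interval -1.96 to -0.34) and did not pass (limma adjusted p = 0.0554). It passed without Scram A at -0.79 (limma adjusted p = 0.00385) and without Scram B at -1.41 (0.0388). Without Scram C or any 1 shSLX4IP library it did not pass (limma adjusted p = 0.107 to 0.170). Without Scram A its mean in Scram was 1.73 times that in shSLX4IP, and that of Sub1 2.35 times.

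Sub1 and Anp32b were the members with the lowest log2 fold changes, and the bases upstream of their start sites (chr15:11996008-11996257, minus strand, and chr4:46450676-46450925, plus strand) are shown for that reason. Capitals mark the E box CACGTG, GC boxes and CCAAT boxes. A GC box is the run GGGCGG. Each motif was searched on both strands, and in Sub1 a CCAAT box on the opposite strand runs into a GC box.
Sub1: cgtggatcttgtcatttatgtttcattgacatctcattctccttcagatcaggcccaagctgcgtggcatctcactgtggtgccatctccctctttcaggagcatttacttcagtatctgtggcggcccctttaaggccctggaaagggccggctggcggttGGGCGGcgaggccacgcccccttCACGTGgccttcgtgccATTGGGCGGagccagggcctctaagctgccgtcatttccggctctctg
Anp32b: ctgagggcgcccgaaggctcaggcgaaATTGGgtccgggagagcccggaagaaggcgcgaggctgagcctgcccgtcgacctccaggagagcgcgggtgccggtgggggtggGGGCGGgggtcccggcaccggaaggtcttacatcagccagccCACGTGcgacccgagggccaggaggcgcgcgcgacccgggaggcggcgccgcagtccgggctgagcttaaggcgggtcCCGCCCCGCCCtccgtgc
The E box occurred in 7.15% of all 32851 promoters, the GC box in 35.7% and the CCAAT box in 37.4%. These 2 promoters hold all 3, and the E box was in none of the other 7 windows. Those come from Casp8ap2, Ing3, Nrf1 and Phf14 only, and the windows of Ing3 overlap each other. Chd7, Epc1, Wac and Zfp462 had no window, so the E box cannot be called particular to Sub1 and Anp32b. Each of those 7 holds a GC box or a CCAAT box, and the windows of Casp8ap2 and Ing3 hold both. The 3 motifs were chosen after the values were seen, and binding was not measured. The windows were GC-rich, at 59.3% for Sub1 and 76.3% for Anp32b, against a median of 52.7% over all promoters. The other 7 windows ran from 46.3% to 77%, with both ends in Nrf1, so this is not particular to Sub1 and Anp32b.

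**Figure D2:**
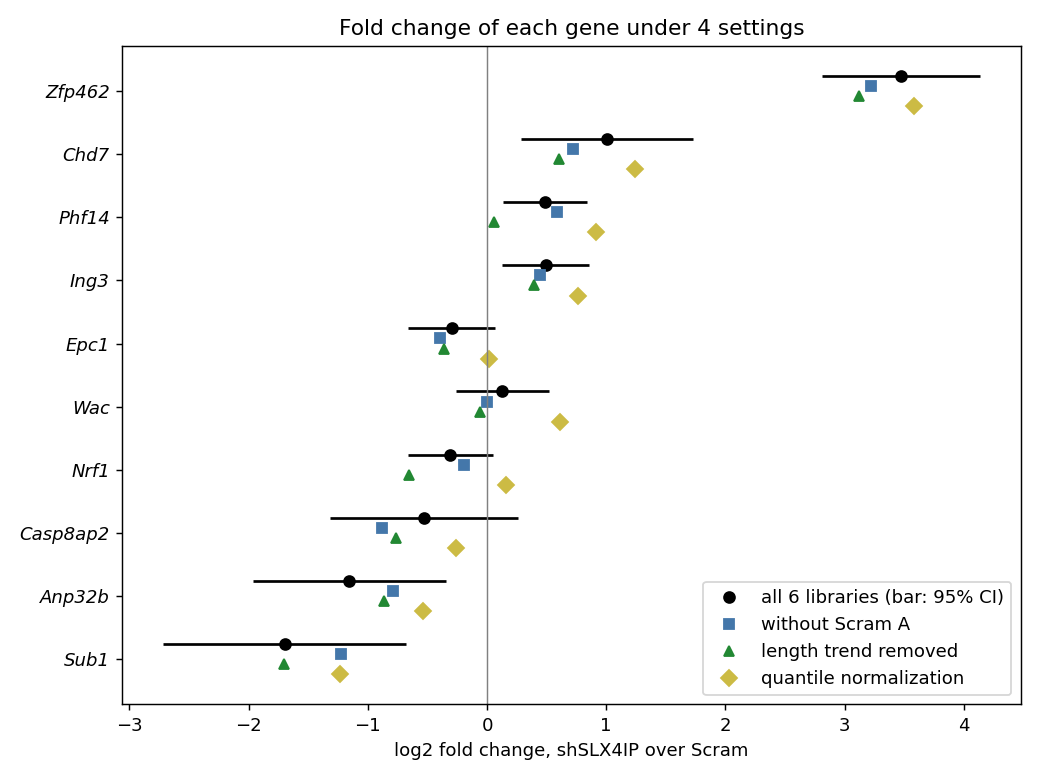
Log2 fold change of shSLX4IP over Scram (x axis) for each of the 10 genes, with all 6 libraries (black, bar for the 95% interval of the limma fit), without Scram A (blue), with the length trend removed (green) and after quantile normalization (yellow). Zfp462 lies at 3.12 or above in each, while Wac, Epc1 and Nrf1 cross 0 between settings.

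Scram A differed from the other controls in both directions among the 10 genes. It was at 264% (Sub1), 214% (Anp32b), 126% (Nrf1) and 123% (Phf14) of the mean of Scram B and C. It was at 48.2% for Casp8ap2, 54.7% for Chd7, 58.9% for Zfp462, 75.8% for Wac, 81.3% for Epc1 and 90.5% for Ing3. Scram B and C differed from each other by at most 0.46 (Chd7) on the log2 scale. Across the 10 genes the log2 ratio of Scram A to the other controls had a Pearson correlation of -0.53 with log2 exonic length and a Spearman correlation of -0.49. Over 353 genes of the stretches with a mean of at least 100 these were -0.37 and -0.55. These are descriptions across genes, which share libraries and are not independent. Anp32b had the shortest exonic length, 1716 bases, and Phf14 the longest, 16040 bases. With Scram A left out, 4 of the 10 were called higher (Zfp462, Chd7, Phf14 and Ing3) and 4 lower (Sub1, Anp32b, Casp8ap2 and Epc1), but 42.7% of all features (23.3% higher, 19.4% lower) and 66.1% of the tested genes of the stretches (30.9% higher, 35.3% lower) were then called as well.

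**Figure D3:**
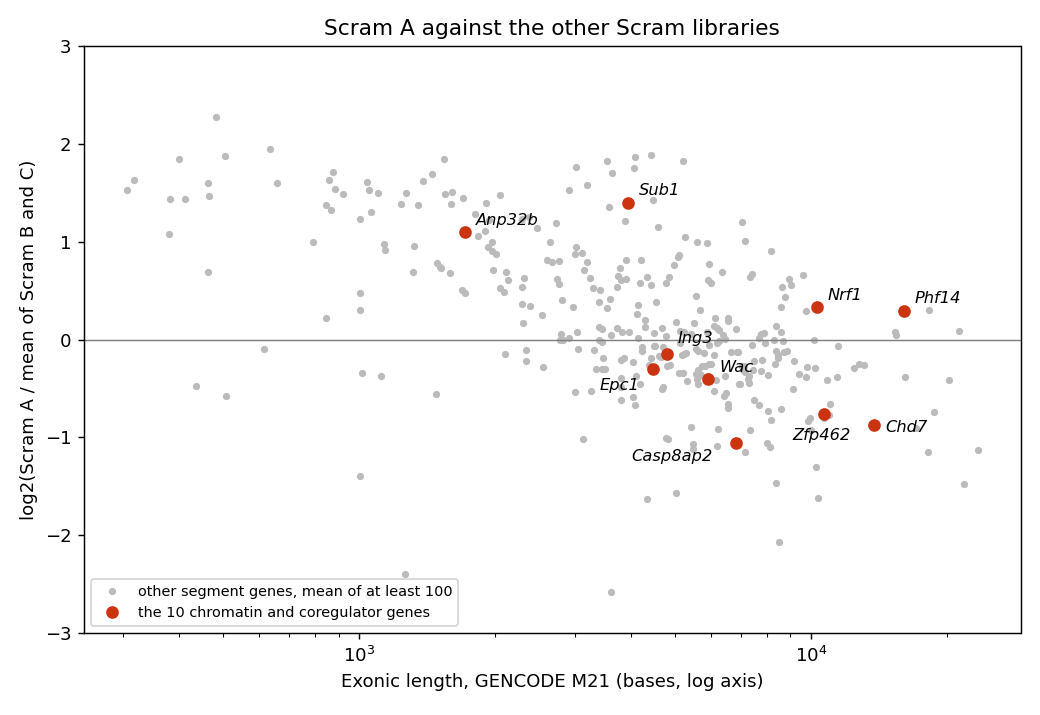
Log2 of the Scram A value over the mean of B and C (y axis) against exonic length in bases (x axis, log scale) for the 10 genes (red, named) and the other genes of the 4 stretches with a mean of at least 100 (grey, 353 genes in all, of which 4 lie under the axis limit of -3). Sub1 and Anp32b lie above 1, and Casp8ap2, Chd7 and Zfp462 lie between -0.76 and -1.05.

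Other settings gave other counts of the 10 and other shares of features called. Of the 10, 2 were called with a pseudocount of 0.5 (21.9% of features), with no filter (11.3%) and with a minimum mean of 50 (26%), and 3 with a pseudocount of 5 (25.5%). With TMM factors 4 were called (23.3%), after quantile normalization 6 (28.3%), by edgeR 4 (19.3%) and by DESeq2 7 (40.4%). Zfp462 alone was called by limma without the intensity trend (19.9%), with a replicate block (8.29%), without Scram C (13.9%) and without each shSLX4IP library (10.4% to 10.6%). Without Scram B 4 were called (23.9%). Adjusting over the 462 features of the stretches and the mitochondrial genome alone called 6 (49.6%), and removing the length trend, fitted over the 431 genes of the stretches, called 7 (63.1%). Zfp462 was called in each of these.

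Ratios of 2 genes within a library do not depend on the size factor. Ing3 and Epc1 sit in the same complex and have like exonic lengths, 4796 and 4475 bases. The ratio of Ing3 to Epc1 was 0.633, 0.537 and 0.601 in Scram and 0.935, 0.984 and 1.14 in shSLX4IP. The libraries of the 2 groups did not overlap, and Scram A lay with the other controls. The mean log2 ratio was higher by 0.79 in shSLX4IP, by 0.70 to 0.85 without any 1 library and by 0.76 with the length trend removed. Wac to Rnf20, adaptor and ligase subunit, was 1.61, 1.71 and 1.42 in Scram and 2.200, 2.323 and 2.102 in shSLX4IP, a log2 difference of 0.48. Here Scram A lay between the other controls and the groups did not overlap. Phf14 to Chd7, the longest members, was 3.98, 1.52 and 2.12 in Scram and 1.77, 1.65 and 1.47 in shSLX4IP, with overlap. Nrf1 to Zfp462, near each other in length, was between 10.8 and 26.6 in Scram and between 1.12 and 1.21 in shSLX4IP, a log2 difference of -3.79. The exact 2-sided permutation test over the 6 libraries gave p = 0.1 for 3 of these 4 ratios and p = 0.3 for Phf14 to Chd7, or 0.133 and 0.3 after Benjamini-Hochberg adjustment over the 4. With 3 libraries against 3 it cannot give less than 0.1, and the pairs were chosen with the values known.

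**Figure D4:**
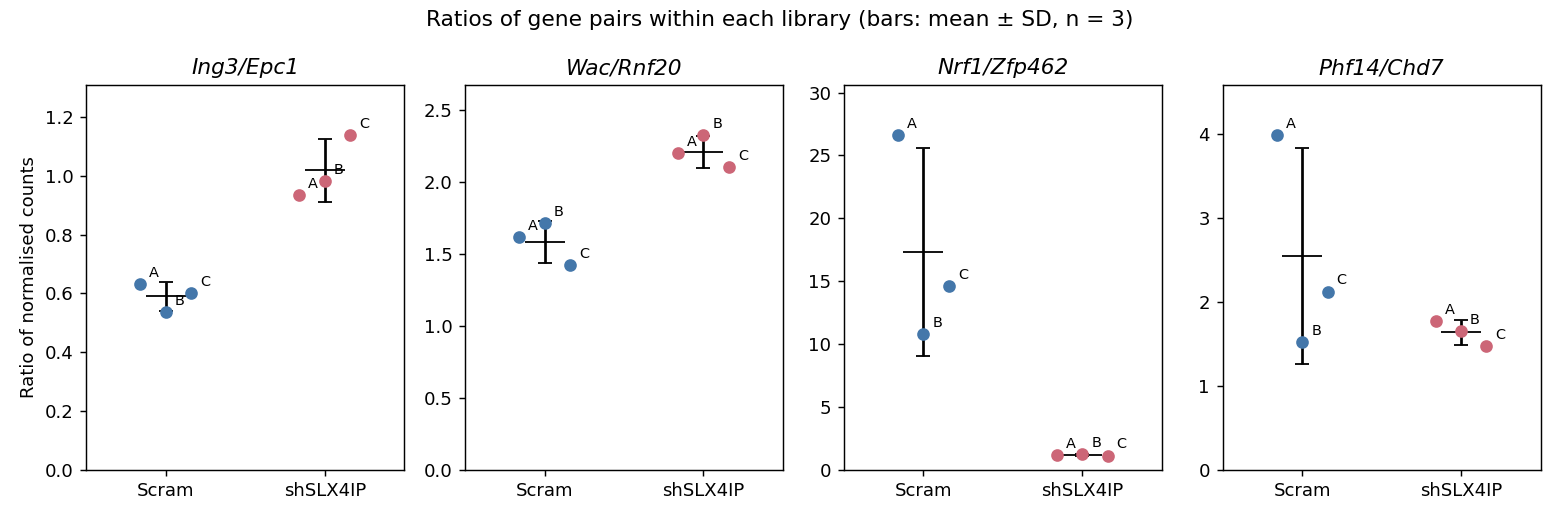
Ratio of the normalised counts of 2 genes within each library (y axis, linear from 0) for Ing3/Epc1, Wac/Rnf20, Nrf1/Zfp462 and Phf14/Chd7, with bars for mean ± SD (n = 3). The groups are apart for the first 3 pairs, and for Phf14/Chd7 Scram A at 3.98 stands above the rest.

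Per kilobase of exonic length the order of the mean levels differed between the groups. In Scram, Anp32b was highest at 21302 ± 10265 normalised counts per kilobase (SD, n = 3), followed by Sub1 at 1157 ± 710 and Wac at 870 ± 145, whose ranges overlapped. Sub1 ran from 695 in Scram B to 1974 in Scram A, and Wac from 717 in Scram A to 1005 in Scram B. Sub1 was thus above Wac in Scram A and below it in Scram B and C, as in shSLX4IP. Epc1 (354 ± 40.7), Nrf1 (337 ± 47.2), Casp8ap2 (259 ± 95.3) and Ing3 (194 ± 16.5) followed, each overlapping its neighbour. Phf14 (121 ± 14.9), Chd7 (62.8 ± 22.6) and Zfp462 (20.6 ± 6.40) came last, without overlap. In shSLX4IP, Anp32b (8910 ± 214) and Wac (942 ± 29.0) led, and Sub1 (319 ± 24.1), Epc1 (287 ± 10.0), Ing3 (272 ± 20.2) and Nrf1 (271 ± 9.44) each overlapped the next. Zfp462 stood at 223 ± 14.3 per kilobase, above Casp8ap2 (170 ± 8.74), Phf14 (169 ± 7.89) and Chd7 (121 ± 6.04). The lengths are the union of all annotated exons, and unused exons make a level per kilobase too low.

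Further chromatin and coregulator genes of the 4 stretches moved in both directions. Of a list of 25, 5 (Foxp2, Prdm13, Runx1t1, Tox and Tspyl5) were listed at 0 in all 6 libraries and 20 were tested. Among these 3 were higher, 4 were lower and 13 did not pass. Over all features 11.7% were higher and 11.3% lower, and in the stretches 18.3% and 22.7%. The median log2 fold change of the 20 was 0.15. Bach2, a transcriptional repressor of lymphocytes, rose from 150 ± 47.6 in Scram to 796 ± 108 in shSLX4IP (limma log2 fold change 2.45, adjusted p = 0.00415). Mdfic, whose product has a MyoD family inhibitor domain, rose from 893 ± 119 to 2340 ± 179 (1.39, limma adjusted p = 0.00354). The zinc finger gene Zfp292 rose from 1380 ± 471 to 3384 ± 135 (1.36, limma adjusted p = 0.0244). Thoc1, of the THO complex that couples transcription to mRNA export, fell from 2836 ± 747 to 1595 ± 134 (-0.80, adjusted p = 0.0469). Exons of Thoc1 overlap those of Usp14 on the other strand over 24.3% of its exonic length, so its reads are uncertain. Mtdh, a coactivator linked to breast cancer metastasis, fell from 7684 ± 261 to 4634 ± 675 (-0.74, adjusted p = 0.0202), Ccnc, the cyclin of the Mediator kinase module, from 1614 ± 92.4 to 1026 ± 164 (-0.66, adjusted p = 0.0402), and Topors, a ubiquitin and SUMO ligase, from 3543 ± 272 to 2495 ± 126 (-0.50, adjusted p = 0.0390). Bach2 and Mdfic kept their call in each of 18 other settings, Zfp292 in 13, Mtdh in 11, Thoc1 in 9, Ccnc in 8 and Topors in 7. The groups did not overlap in 14 of the 20, 7 of which did not pass, against 53.5% of all features and 67.5% of the tested genes of the stretches. Without Scram A, 8 of the 20 were higher and 5 lower, against 30.9% and 35.3% of the tested genes of the stretches and 23.3% and 19.4% of all features.

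**Figure D5:**
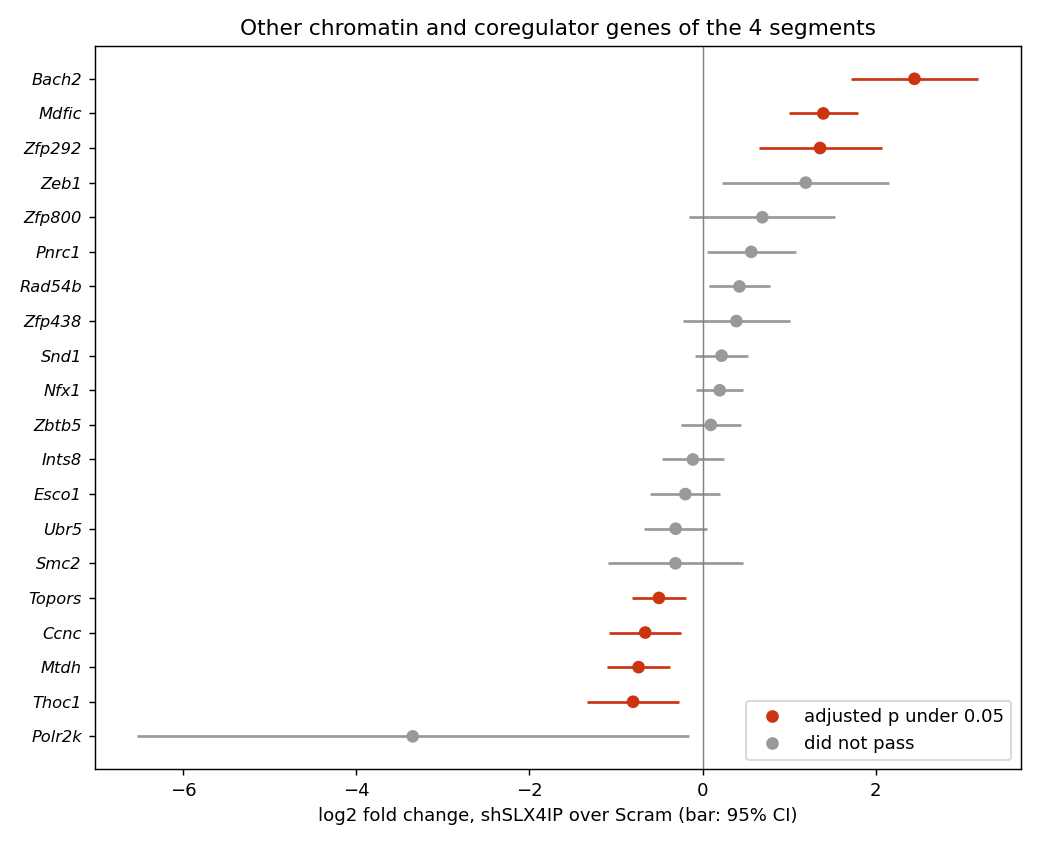
Log2 fold change of shSLX4IP over Scram (x axis, bar for the 95% interval of the limma fit) for the 20 tested genes of the wider list, in red where the adjusted p was under 0.05. Bach2, Mdfic and Zfp292 lie to the right and Topors, Ccnc, Mtdh and Thoc1 to the left of 0.

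Reads of related sequences could bear on some of these values, which was not tested. Transcripts of Chd7, Ing3, Zfp462, Nrf1 and Casp8ap2 shared no stretch of at least 200 bases at 90% identity or more with the annotated transcript of another gene. Anp32b and Sub1 did so with 3 other genes each and Phf14 with 2, at a mean value of at most 1.38 over the 6 libraries. None of these other genes lies in the stretches, so their low values set no limit on the reads that came from them. Wac shared such a stretch with a pseudogene and with an antisense RNA, and Epc1 with an antisense RNA. Exons of that antisense RNA cover 7.20% of the exonic length of Epc1 and had a mean of 19.5, and those of the one at Wac cover 4.39% and had a mean of 7.80.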

How the data were processed

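Per the labels' protocols, a stranded mRNA kit was used on 1 µg of RNA. Tools named in the submitters' processing notes are STAR 2.7.7, fastp 0.19.5, DESeq2 1.22.1 and StringTie 2.1.7, with the build GRCm38. The annotation release is not given in the sources used here, nor are the filters and the strand setting. By the name and values of the deposited table, its unit is a normalised signal (counts over a size factor for each library). Between 99.98% and 100% of a library's values above 0 lay within 0.1 of a whole number of steps. Column letters are not tied to the labels' replicate numbers.

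Symbols, coordinates and exonic lengths come from GENCODE M21 (GRCm38), which matched 52094 of 53647 identifiers without regard to version and 35 with it. The authors may thus have counted with another release, and whether it fits the build of the alignment could not be checked. Values at 0 outside the stretches are therefore not read as absent expression, and a count inside them is that of its identifier as deposited. Protein-coding genes along each chromosome scored 3 where the mean value was at least 1000 and -1 otherwise. Stretches whose summed score reached a maximum of at least 30 were used: chromosome 4 (3574875 to 59904737), 6 (3372257 to 30509783), 15 (9071260 to 38692446) and 18 (4375592 to 10818704).

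Features with a mean of at least 10 were tested with limma 3.58.1 (R 4.3.3) on log2(value + 1), with a trend, 2-sided, at a threshold of 0.05. Fold changes are on that scale, which understates those of low genes. Alternatives included other pseudocounts, filters and scalings, a replicate block, edgeR 4.0.16 and DESeq2 1.42.0 on recovered reads (1566 and 3226 features called), removal of a spline on log2 exonic length, and leaving out each library. All 10 genes are named, and of the wider list the 4 highest and 4 lowest called. The members and lists were chosen with earlier results of these data known. Shared sequence was searched with megablast.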

Additional observations from a re-analysis of the deposited data

How the results depend on the processing

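With all 6 libraries 1 gene was called higher and 1 lower. Over the 6 leave-one-out fits the number higher ran from 1 to 4 and the number lower from 0 to 4, most without Scram A. TMM factors gave 2 higher and 2 lower, edgeR 2 and 2, quantile normalization 4 and 2, DESeq2 4 and 3, adjustment over the stretches and mitochondrial genes alone 4 and 2, and removal of the length trend 3 and 4. A pseudocount of 5 gave 2 lower and limma without the trend gave 0 lower. In the fit reported, the adjusted p of Chd7, Phf14, Ing3 and Anp32b lay between 0.0554 and 0.0650. DESeq2 called 40.4% of the features it gave an adjusted p.

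Reversals came in 3 genes that did not pass in the fit reported, and the cause was not tested. Epc1 was at 0.0128 and Nrf1 at 0.16 after quantile normalization. Wac was at -0.0554 with the length trend removed and at -0.0037 to 0.24 with 1 library left out, the lowest without Scram A. Leaving out 1 library in turn kept the sign of the 4 ratios. Both the pairs and these settings for them were chosen after the values were seen. For Phf14 to Chd7 the log2 difference of -0.52 was -0.14 without Scram A.

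Deviations of same-lettered libraries from their group means correlated at -0.021 to -0.0007, and those of different-lettered libraries at -0.017 to 0.018. No pairing by letter was seen, but with 3 libraries per group and Scram A apart this check cannot exclude one. With the letters as a replicate block, 1 gene was higher and 0 lower (Zfp462 adjusted p = 0.0242, Sub1 0.0700), and 674 features were called in place of 1872.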
